A study of Mus musculus with 12 samples.

Results

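The genes described here are 10 genes of the Notch pathway and of the choice between absorptive and secretory fates in the gut epithelium, picked by name from the 14244 genes of the deposited table. All 10 of the 10 were found there. They are the receptors *Notch1* and *Notch2*, the ligands *Jag1*, *Dll1* and *Dll4*, the target *Hes1*, and the secretory factors *Atoh1*, *Gfi1*, *Neurog3* and *Neurod1*. Gut epithelial cells were taken from 5 WT and 7 *Chd8L*+/- C57BL/6 male littermates at 8 weeks of age, and 12 poly(A) RNA libraries, as many as there were mice, were sequenced. *Chd8L*+/- mice carry a constitutive heterozygous deletion that removes the large isoform of CHD8, an autism-linked chromatin remodeler, in all tissues and not in the gut alone. The comparison asks how loss of one copy of this isoform changes gut epithelial RNA.

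Notch signaling passes between neighboring cells. A Delta or Jagged ligand on one cell binds a Notch receptor on the next, the receptor is cut by ADAM proteases and then by gamma-secretase, and the freed intracellular part joins RBPJ and Mastermind proteins on DNA to switch on targets such as *Hes1*. In intestinal crypts, HES1 represses *Atoh1*, so cells with active Notch stay in the absorptive lineage. Cells that escape it turn on *Atoh1*, express Delta ligands themselves and become secretory cells such as goblet, Paneth or enteroendocrine cells. Tuft cells are grouped with the secretory cells here.

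Each value is a normalized count, that is, the reads counted on a gene divided by a size factor of the library. Libraries held from 15691662 to 20761315 counted reads. *Chd8*, the targeted gene, averaged 953 ± 85.5 (SD, n = 5) for WT against 1297 ± 123 (SD, n = 7) for *Chd8L*+/- (log2 fold change 0.44, limma, adjusted p = 0.121), but these counts cover the whole gene and do not check the deletion. All 5 WT libraries (at most 1050.2) lay below all 7 *Chd8L*+/- libraries (at least 1084) for *Chd8*, and this includes WT replicate 2. The test between genotypes was limma, run on log2(normalized count + 1) for 12808 genes averaging 10 or more, with Benjamini-Hochberg adjustment, and each fold change is on that scale. At an adjusted p of 0.05 or less, 3 genes (0.0234%) differed, and 24.3% of genes (12.5% higher and 11.8% lower in *Chd8L*+/-) reached an unadjusted p of 0.05. WT replicate 2 stood apart from the other WT libraries. On the first principal component of all tested genes (39.7% of the variance) it lay at 41.0, the other WT libraries lay between -67.5 and -26.2, and the *Chd8L*+/- libraries lay between 0.26 and 42.7. Whether its genotype or its preparation differed from its label was not tested. For the 10 genes, values without it are given below where they change a call or move a value by over 1.5 times. For the other genes, counts of those passing without it are given by list.

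None of the 10 genes passed the adjusted threshold in limma, edgeR or DESeq2, and 1 of the 10, *Notch2*, reached an unadjusted p of 0.05, in each of these tools. The share of all genes past the adjusted threshold was 0.039% in edgeR and 6.29% in DESeq2, and the share at an unadjusted p of 0.05 was 22.4% and 25.2%. In limma, 7 genes had a positive and 3 a negative log2 fold change, with a median of 0.25 against 0.014 over all genes tested. Both receptors and *Jag1* had the 3 largest log2 fold changes, and *Atoh1* and *Neurod1* the 2 lowest. RNA of whole epithelial preparations cannot tell fewer cells of a type from less RNA per cell.

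**Figure D1:**
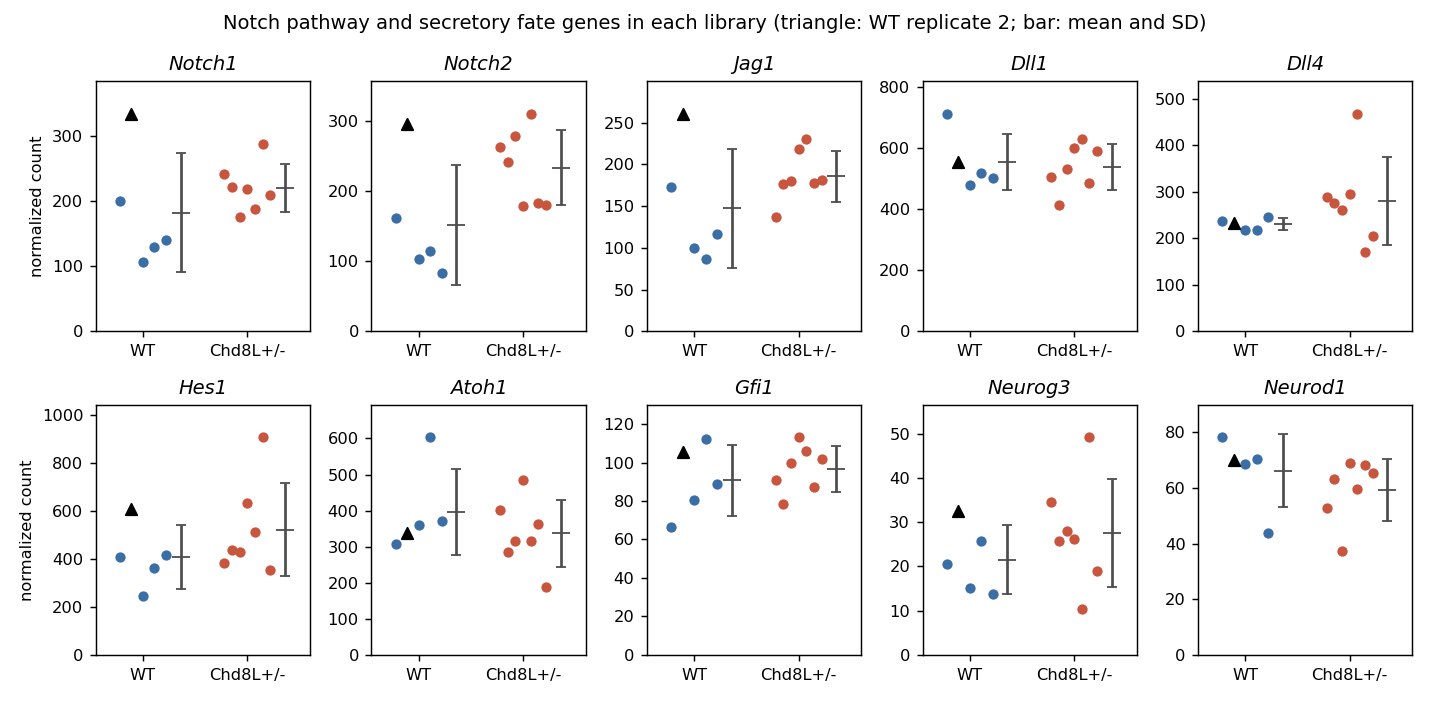
Normalized counts (y axes, linear, from 0) of each of the 10 genes in the 5 WT and 7 *Chd8L*+/- libraries; a point is a library in replicate order, the triangle is WT replicate 2, and bars give mean and SD. WT replicate 2 holds the highest WT value of *Notch1*, *Notch2*, *Jag1* and *Hes1*, and no gene separates all WT from all *Chd8L*+/- libraries.

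*Notch2*, a receptor gene on chromosome 3 of GRCm38 (98013527 to 98150361, plus strand), had the largest fold change of the 10 genes. Its normalized counts in WT replicates 1 to 5 were 161, 295, 103, 115 and 82.8. In *Chd8L*+/- libraries they had a lowest value of 179, a median of 241 and a highest value of 310.1. All 7 *Chd8L*+/- libraries lay above 4 of the 5 WT libraries, and only 1 of them lay above WT replicate 2. The means were 151 ± 85.4 (SD, n = 5) for WT against 233 ± 53.5 (SD, n = 7) for *Chd8L*+/-, a log2 fold change of 0.74 with a standard error of 0.27 (limma, adjusted p = 0.141). A two-sided exact permutation test of the genotype labels gave an unadjusted p of 0.0429, where the smallest possible p is 0.00126.

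*Notch1*, the other receptor of the group, lies on the minus strand of chromosome 2 (26457903 to 26516663). It had 199.99, 334, 107, 129 and 140.4 normalized counts in WT replicates 1 to 5. The *Chd8L*+/- libraries ranged from 176 to 288 around a median of 219. All 7 lay above the WT median, yet the highest value of all 12 was that of WT replicate 2, and the groups overlapped. The log2 fold change was 0.38 with a standard error of 0.24 (limma, adjusted p = 0.335; two-sided exact permutation p = 0.176). *Notch1* shares exon sequence with 2 noncoding genes on the opposite strand, *0610009E02Rik* and *Gm13568*, and the use of strand in the counting is not stated.

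*Jag1*, a Jagged ligand on chromosome 2 (137081456 to 137116644, minus strand), had, like the receptors, its highest WT value in WT replicate 2. WT replicates 1 to 5 had 173, 261, 99.8, 86.3 and 117 normalized counts. The *Chd8L*+/- libraries ran from 137 to 230.5 with a median of 180.2. All 7 lay above the WT median and none above WT replicate 2, and 6 of the 7 lay above the other 4 WT libraries. Its log2 fold change was 0.44 with a standard error of 0.24 (limma, adjusted p = 0.278; two-sided exact permutation p = 0.125).

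Without WT replicate 2, *Notch2*, *Notch1* and *Jag1* were the 3 of the 10 genes past the adjusted threshold, while 27.6% of all genes passed it in that fit, 14% as higher and 13.6% as lower in *Chd8L*+/-. *Notch2* then had a log2 fold change of 1.02 (standard error 0.21, limma, adjusted p = 0.00593). The value for *Notch1* was 0.63 (standard error 0.18, limma, adjusted p = 0.0221) and that for *Jag1* 0.67 (standard error 0.20, limma, adjusted p = 0.0235). The WT mean of *Notch2* without that library was 115 ± 33.1 (SD, n = 4), with a highest WT value of 161, below the lowest *Chd8L*+/- value of 179. *Notch2* was the 1 gene of the 10 whose groups then did not overlap, which held for 14.4% of all genes (6.69% higher, 7.72% lower). Leaving out any other single library brought none of the 10 genes past the threshold.

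**Figure D2:**
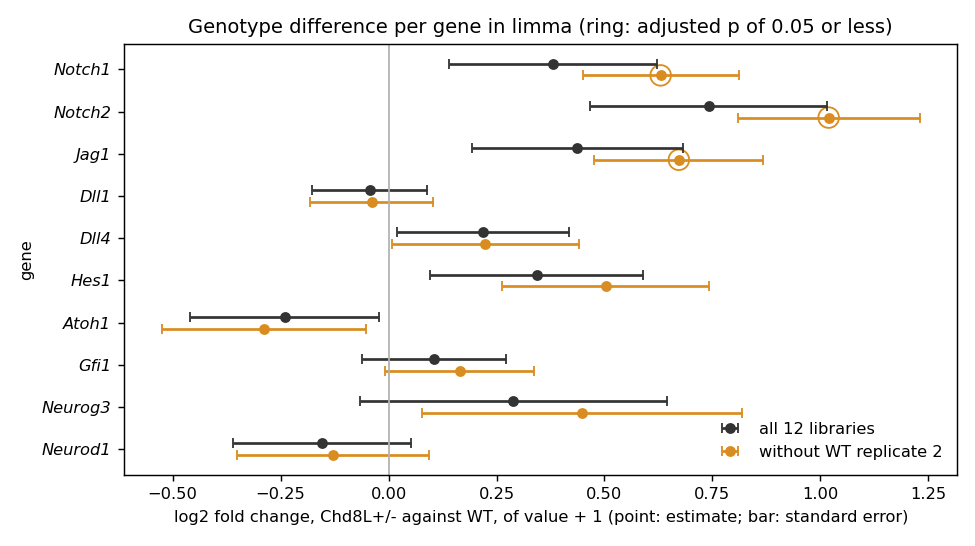
Log2 fold change of *Chd8L*+/- against WT (x axis, log2 of value + 1) for each gene (y axis), with standard error bars, over all 12 libraries (dark) and without WT replicate 2 (orange). Rings mark an adjusted p of 0.05 or less in limma, which *Notch1*, *Notch2* and *Jag1* reach only in the fit without WT replicate 2.

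The Delta ligands gave a different picture. *Dll1*, which newly specified secretory cells present to their neighbors, lies on chromosome 17 (15367354 to 15376872, minus strand) and had 712, 555, 479.9, 519 and 503 normalized counts in WT replicates 1 to 5. *Chd8L*+/- libraries lay between 414 and 629.7 with a median of 531. The groups lay on top of each other, with means of 554 ± 92.6 (SD, n = 5) and 537 ± 75.6 (SD, n = 7). *Dll1* had a log2 fold change of -0.04 with a 95% interval of -0.33 to 0.24 (limma, adjusted p = 0.864).

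*Dll4*, the ligand that acts with *Dll1* in crypts and that is also known from blood vessels, lies on chromosome 2 (119325784 to 119335962, plus strand). Its WT values were close together, at 238, 233, 219, 218 and 246 normalized counts in replicates 1 to 5. *Chd8L*+/- libraries spread from 170.2 to 468 around a median of 276. Of the 7, 5 lay above every WT library and 2 below every WT library. The SD was 12.1 (n = 5) in WT and 94.9 (n = 7) in *Chd8L*+/- libraries, and *Chd8L*+/- replicate 5 held the highest value. *Dll4* had a log2 fold change of 0.22 with a standard error of 0.20 (limma, adjusted p = 0.513; two-sided exact permutation p = 0.352). *Gm14207*, a noncoding gene on the opposite strand, shares 214 exon bases with *Dll4*. Endothelial markers, which would mark vessel cells in the preparation, were low. The 11 of 12 markers found in the table summed to between 122 and 215 normalized counts in WT and between 113 and 239.9 in *Chd8L*+/- libraries, and 5 of the 11 (*Cdh5*, *Kdr*, *Flt1*, *Cldn5* and *Eng*) averaged under 10. Their part in the *Dll4* values was not tested.

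*Hes1*, the repressor that Notch activates in crypt progenitors, lies on chromosome 16 (30064384 to 30067796, plus strand). Its WT values were 409, 611, 247, 361 and 415 normalized counts in replicates 1 to 5. *Chd8L*+/- libraries ran from 354 to 908 with a median of 438. The highest value of all libraries was *Chd8L*+/- replicate 6 and the lowest WT replicate 3, and 5 of the 7 *Chd8L*+/- libraries lay within the WT range. For *Hes1*, the log2 fold change was 0.34 with a standard error of 0.25 and a 95% interval of -0.18 to 0.87 (limma, adjusted p = 0.395; two-sided exact permutation p = 0.245). It moved with single libraries, to 0.50 without WT replicate 2 (limma, adjusted p = 0.134), to 0.18 without WT replicate 3 and to 0.20 without *Chd8L*+/- replicate 6.

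*Atoh1*, the transcription factor that commits cells to the secretory lineage, lies on chromosome 6 (64729125 to 64731245, plus strand) as a single exon. Its WT values were 308, 337, 359.9, 603 and 371 normalized counts in replicates 1 to 5. *Chd8L*+/- libraries ran from 189 to 485 with a median of 317. WT replicate 4 stood above all others and *Chd8L*+/- replicate 7 below all others, and between them the groups were mixed. Means were 396 ± 118 (SD, n = 5) for WT against 337 ± 93.3 (SD, n = 7) for *Chd8L*+/-, a log2 fold change of -0.24 with a 95% interval of -0.71 to 0.23 (limma, adjusted p = 0.515; two-sided exact permutation p = 0.346).

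HES proteins bind the letters CACGCG (class C sites) and CACNAG (N boxes), and RBPJ binds TGGGAA. These letters were searched on both strands in the 250 bases before each RefSeq start in GRCm38.p6, for which 9 of the 10 genes had an entry; no sequence for *Hes1* is shown. CACGCG was found for 7 of the 9 genes (*Notch2*, *Jag1*, *Dll1*, *Dll4*, *Atoh1*, *Neurog3* and *Neurod1*), that is, in 7 of their 11 windows, and in 7.62% of all 32851 such windows. CACNAG was found in 3 of the 11 windows and in 36.7% of all windows, and TGGGAA in 0 of the 11 and in 21.6% of all windows. The windows of the 9 genes held between 55.6% and 72% G or C, against a median of 52.4% over all windows, and CACGCG is itself rich in these letters. The windows of *Atoh1* and *Neurog3* are shown because both are known targets of HES1 repression, which was not tested in these data. That of *Dll4* is shown because it is a ligand with the same letters. The 3 windows are written 5′ to 3′, with CACGCG on either strand in capitals. They lie at chr6:64728875-64729124, chr10:62132840-62133089 and chr2:119325534-119325783, all on the plus strand. The 3 matches before *Atoh1* begin 131, 95 and 41 bases before its start, that before *Neurog3* begins 121 bases before and that before *Dll4* 195 bases before. A match is only a run of letters, not a shown binding site, and the motifs were chosen after the values were seen.
Atoh1: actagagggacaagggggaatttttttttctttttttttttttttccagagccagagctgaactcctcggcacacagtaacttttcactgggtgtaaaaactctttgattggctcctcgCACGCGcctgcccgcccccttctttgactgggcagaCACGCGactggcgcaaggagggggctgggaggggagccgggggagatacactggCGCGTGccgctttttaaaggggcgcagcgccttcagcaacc
Neurog3: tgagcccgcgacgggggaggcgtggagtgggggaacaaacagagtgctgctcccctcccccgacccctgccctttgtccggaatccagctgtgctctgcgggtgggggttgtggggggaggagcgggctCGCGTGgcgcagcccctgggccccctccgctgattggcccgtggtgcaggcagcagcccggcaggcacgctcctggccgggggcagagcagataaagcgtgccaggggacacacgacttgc
Dll4: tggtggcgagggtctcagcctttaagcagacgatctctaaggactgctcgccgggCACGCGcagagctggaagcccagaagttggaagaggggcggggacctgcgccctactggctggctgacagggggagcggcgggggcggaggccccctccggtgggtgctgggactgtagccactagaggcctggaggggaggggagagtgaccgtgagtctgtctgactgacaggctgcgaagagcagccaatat

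Within a library, *Hes1* and *Atoh1* can be set against each other without any scaling. The log2 ratio of *Hes1* to *Atoh1* counts was 0.03 ± 0.67 (SD, n = 5) for WT against 0.61 ± 0.43 (SD, n = 7) for *Chd8L*+/-. It ranged from -0.74 to 0.86 in WT and from -0.060 to 1.32 in *Chd8L*+/-, so the ranges overlapped from -0.060 to 0.86, and WT replicate 2 gave the WT maximum. Across the 12 libraries, *Hes1* and *Atoh1* had a Pearson r of 0.12. Each library is a mixture of cells, and the ratio was not tested.

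*Gfi1*, a zinc finger repressor that acts below ATOH1 and favors goblet and Paneth over enteroendocrine fate, lies on chromosome 5 (107716657 to 107726036, minus strand). It had 66.7, 106, 80.7, 112 and 89.0 normalized counts in WT replicates 1 to 5 and between 78.2 and 113 (median 99.9) in *Chd8L*+/- libraries. *Gfi1* had a log2 fold change of 0.11 with a standard error of 0.17 (limma, adjusted p = 0.721; two-sided exact permutation p = 0.466). With quantile normalization it turned to -0.0365.

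*Neurog3*, the factor that starts the enteroendocrine program in a short-lived progenitor, lies on chromosome 10 (62133090 to 62134763, plus strand) and was the least abundant of the 10 by count. Its normalized counts were 20.4, 32.5, 15.1, 25.8 and 13.8 in WT replicates 1 to 5 and between 10.48 and 49.2 (median 26.2) in *Chd8L*+/- libraries. The lowest value, in *Chd8L*+/- replicate 5, rested on 10 reads, with an exact 95% Poisson interval of 4.80 to 18.4 reads. The highest, in *Chd8L*+/- replicate 6, rested on 54 reads with an interval of 40.6 to 70.5, and both intervals cover counting error only. Its log2 fold change was 0.29 with a 95% interval of -0.47 to 1.05 (limma, adjusted p = 0.637; two-sided exact permutation p = 0.432), and was 0.45 without WT replicate 2, 0.13 without *Chd8L*+/- replicate 6 and 0.49 without *Chd8L*+/- replicate 5. *Fam241b* on the opposite strand shares 273 of the 1674 exon bases of *Neurog3*, so part of these few reads could belong to either gene.

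*Neurod1*, which acts below *Neurog3* in maturing enteroendocrine cells, lies on chromosome 2 (79452521 to 79456751, minus strand). WT replicates 1 to 5 had 78.2, 70.0, 68.6, 70.4 and 43.9 normalized counts. *Chd8L*+/- libraries had between 37.3 and 69.1 with a median of 63.1, and 0 of the 7 lay above the WT median. The log2 fold change was -0.15 with a standard error of 0.21 (limma, adjusted p = 0.667; two-sided exact permutation p = 0.427). Over the 12 libraries, *Neurod1* and *Neurog3* had a Pearson r of 0.10. *Cerkl* on the same strand and *Gm26755* on the opposite strand share exon bases with *Neurod1*.

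Per kilobase of exon, *Hes1* and *Atoh1* were the most abundant of the 10 genes. In WT libraries, *Hes1* had 201 ± 64.6 and *Atoh1* 187 ± 55.8 normalized counts per kilobase (SD, n = 5), and their ranges overlapped. *Dll1* followed with 131 ± 21.95 normalized counts per kilobase, in a range that overlapped that of *Atoh1*. *Dll4* stood clear of its neighbors, at 59.9 ± 3.15 per kilobase, below every WT value of *Dll1* and above every WT value of *Gfi1*. *Gfi1* (28.5 ± 5.78), *Jag1* (25.3 ± 12.3), *Neurod1* (24.3 ± 4.78), *Notch2* (14.04 ± 7.92), *Neurog3* (12.9 ± 4.63) and *Notch1* (12.8 ± 6.44) came next in normalized counts per kilobase, and each overlapped its neighbor in this order. Every WT value of both Delta ligands (at least 56.6 normalized counts per kilobase) lay above every WT value of both receptors (at most 27.4). Lengths come from GENCODE M21, which may not be the annotation used for the counting.

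Library names end in a number, and 4 of these numbers are carried by both WT and *Chd8L*+/- libraries; the labels do not say what the number stands for. Each of the 4 held only 1 or 2 libraries of a genotype, and their means were compared. By these means, *Notch1* and *Notch2* were higher in *Chd8L*+/- within all 4, as were 18.5% of all tested genes. In all, 36.3% of genes kept one direction or the other. Within number 3, *Chd8L*+/- replicate 1 (*Notch1* 242, *Notch2* 263) lay above WT replicate 4 (129 and 115) but below WT replicate 2 (334 and 295). The differences of mean log2(normalized count + 1) lay between 0.15 and 0.81 for *Notch1* and between 0.51 and 1.58 for *Notch2*. By mean, *Atoh1* was lower in all 4, by between -0.60 and -0.11, as were 17.8% of all tested genes. Within number 3, however, its value in *Chd8L*+/- replicate 1 (402) lay above WT replicate 2 (337) and below WT replicate 4 (603). The 7 other genes moved in both directions between the 4 numbers. For *Hes1* the differences lay between -0.29 and 1.05, for *Jag1* between -0.13 and 1.20, and for *Dll1* between -0.78 and 0.39. With the number as a block, the log2 fold change of *Notch2* was 1.01 (limma, adjusted p = 0.186) and none of the 10 genes passed the adjusted threshold (0% of all genes did). With that block and without WT replicate 2, an alternative added after the values were seen, *Notch2* alone of the 10 passed (log2 fold change 1.21, limma, adjusted p = 0.0158; 17.6% of all genes passed, and 36.1% reached an unadjusted p of 0.05). With the replicate number as a block, 2 of the 10 genes and 18.2% of all genes reached an unadjusted p of 0.05.

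The highest correlations between libraries were among the receptors, *Jag1* and *Hes1*, but none passed adjustment. Of the 45 pairs of the 10 genes, 6 had an unadjusted Pearson p of 0.05 or less, but 0 passed an adjusted p of 0.05 over the 45 pairs in either Pearson or Spearman form. *Notch1* and *Jag1* had the highest Pearson r, 0.78 (permutation p = 0.00294, adjusted p = 0.0861; Spearman rho = 0.57, permutation p = 0.0598, adjusted p = 0.449). Without the 2 libraries farthest from the median of *Notch1*, WT replicates 2 and 3, r was 0.62. After subtracting genotype means it was 0.73, but over the 7 *Chd8L*+/- libraries alone it was -0.42, so the relation does not hold within that genotype.

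*Notch2* and *Jag1* had a Pearson r of 0.77 (permutation p = 0.0043, adjusted p = 0.0861) and a Spearman rho of 0.73 (permutation p = 0.00998, adjusted p = 0.412). Their r was 0.66 without the 2 farthest libraries and -0.036 within *Chd8L*+/- libraries. *Notch1* and *Hes1*, receptor and target, had a Pearson r of 0.75 (permutation p = 0.00574, adjusted p = 0.0861; Spearman rho = 0.61, permutation p = 0.0401, adjusted p = 0.449). This pair kept its sign in *Chd8L*+/- libraries alone, with an r of 0.57, and without the 2 farthest libraries r was 0.59. *Notch1* and *Neurog3* also kept their sign, with a Pearson r of 0.62 over all libraries and 0.72 in *Chd8L*+/- libraries alone. The same held for *Jag1* and *Hes1* (0.64 and 0.35), but not for *Notch1* and *Notch2* (0.70 and -0.55). Every library contributes both values of a pair, and the part of the cell makeup of the preparations in these r was not tested.

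**Figure D3:**
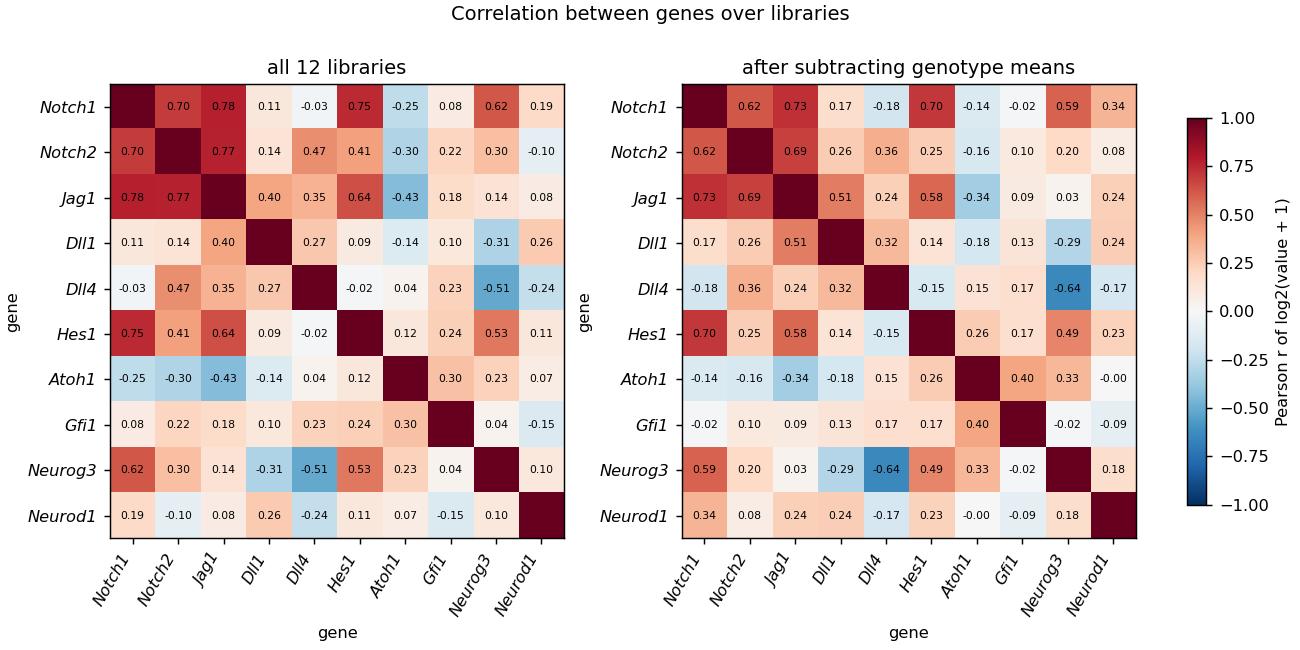
Pearson r of log2(value + 1) between the 10 genes (both axes) over all 12 libraries (left) and after subtracting each genotype's mean (right), on a color scale from -1 to 1. *Notch1*, *Notch2*, *Jag1* and *Hes1* form a block of positive values, with r between 0.41 and 0.78 on the left, and *Neurog3* has 0.62 with *Notch1* and 0.53 with *Hes1*, while r between *Atoh1*, *Gfi1* or *Neurod1* and any other gene lies between -0.43 and 0.30.

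Among all tested genes, the 3 most like *Hes1* over the 12 libraries were *Zfp708* (Pearson r = 0.95), *Snrpb*, a spliceosome component (0.95), and *Hnrnpa2b1*, an RNA-binding protein (0.94). The 3 most like *Atoh1* were *Mgat4b*, a glycosyltransferase (0.95), *Pde2a*, a phosphodiesterase (0.93), and *Hid1* (0.93). For *Dll1* they were *Socs7*, *Trim39* and *3110056K07Rik*, each with a Pearson r of 0.87. These are the highest of 12807 values each and are given as a description of 12 libraries. No secretory factor of the group was among the genes nearest to *Atoh1*.

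The rest of the pathway was followed in lists of 68 other Notch genes, of which 62 were in the table and 60 were tested. Averages in the following are normalized counts. Of the 60, 35 had a positive and 25 a negative log2 fold change, with a median of 0.038. None of the 60 passed the adjusted threshold in limma or edgeR, 4 (6.67%, against 6.29% of all genes) did in DESeq2 (*Psenen*, *Neurl1a* and *Tle1* lower, *Pofut1* higher), and 10 of 60 (16.7%) reached an unadjusted p of 0.05 in limma, against 24.3% of all genes. Without WT replicate 2, 11 of 60 (18.3%) passed the adjusted threshold, against 27.6% of all genes. *Psenen*, *Neurl1a*, *Pofut1*, *Maml3* and *Tle1* were among them.

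Other receptors and ligands were few and low. *Notch4*, the most abundant of them over all 12 libraries though not in WT alone, averaged 57.1 ± 16.1 (SD, n = 5) for WT against 65.0 ± 26.9 (SD, n = 7) for *Chd8L*+/- (limma, adjusted p = 0.843), and *Jag2*, at 64.2 ± 17.3 (SD, n = 5) in WT, had a log2 fold change of -0.35 (limma, adjusted p = 0.328). Among the 10 genes of receptor maturation and cleavage, the median log2 fold change was -0.11 and 1 reached an unadjusted p of 0.05 (24.3% of all genes). That gene was *Psenen*, the smallest gamma-secretase subunit, averaging 965 ± 221 (SD, n = 5) for WT against 620.3 ± 29.8 (SD, n = 7) for *Chd8L*+/-, at a log2 fold change of -0.60 with a standard error of 0.14 (limma, adjusted p = 0.121). Its WT range, 633 to 1154, met the *Chd8L*+/- range, 584 to 661, only at its lower end. The ADAM protease gene *Adam17* had a log2 fold change of 0.18 (limma, adjusted p = 0.332).

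The 18 genes that add sugars to Notch or move it and its ligands through endocytosis had a median log2 fold change of 0.032. An unadjusted p of 0.05 was reached by 3 in the positive (12.5% of all genes) and 1 in the negative direction (11.8% of all genes). *Pofut1*, which adds the O-fucose that Notch needs to bind ligand, averaged 365 ± 82.7 (SD, n = 5) for WT against 532 ± 45.2 (SD, n = 7) for *Chd8L*+/-, at a log2 fold change of 0.57 with a standard error of 0.14 (limma, adjusted p = 0.121). *Neurl1a*, a ubiquitin ligase of the Neuralized family, averaged 154 ± 97.4 (SD, n = 5) against 43.9 ± 15.5 (SD, n = 7), at a log2 fold change of -1.46 (limma, adjusted p = 0.126). *Epn1*, an epsin and the most abundant of this list, had a log2 fold change of -0.13 (limma, adjusted p = 0.611).

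The 23 genes of the nuclear complex and its corepressors had a median log2 fold change of 0.089. An unadjusted p of 0.05 was reached by 3 in the positive (12.5% of all genes) and 2 in the negative direction (11.8% of all genes). *Tle1*, a Groucho corepressor that HES proteins recruit, was the 1 gene of the 60 whose groups did not overlap (0.515% of all genes; 0.242% higher, 0.273% lower). Its normalized counts lay between 963 and 1199.9 in WT and between 606 and 934 in *Chd8L*+/-, at a log2 fold change of -0.43 with a standard error of 0.13 (limma, adjusted p = 0.121; two-sided exact permutation p = 0.00884). *Maml3*, a Mastermind coactivator, had a log2 fold change of 0.74 (limma, adjusted p = 0.128), and *Tle5*, listed in the table as *Aes* and the most abundant of the list, had -0.29 (limma, adjusted p = 0.315). Of 11 other targets, 6 were in the table and had a median log2 fold change of 0.20, and none reached an unadjusted p of 0.05. *Olfm4*, a crypt stem cell gene that depends on Notch, averaged 5438 ± 2750.1 (SD, n = 5) for WT against 7134 ± 2463 (SD, n = 7) for *Chd8L*+/-, at a log2 fold change of 0.47 (limma, adjusted p = 0.331). *Hes2* had -0.25 (limma, adjusted p = 0.459).

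**Figure D4:**
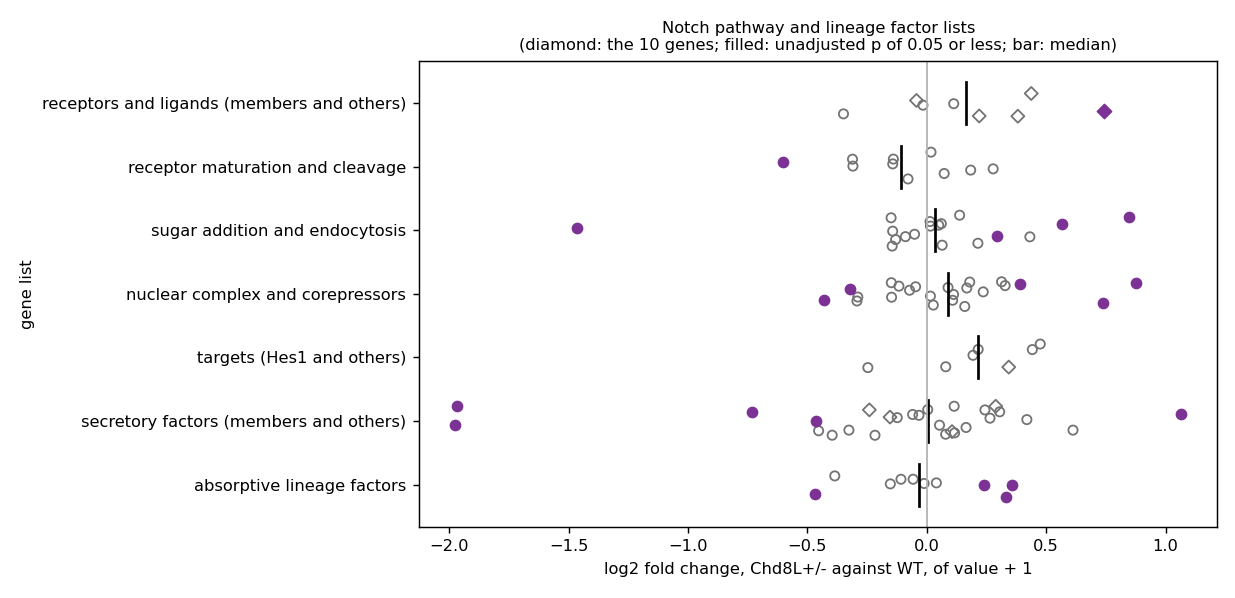
Log2 fold change of *Chd8L*+/- against WT (x axis, log2 of value + 1) of the tested genes of 7 lists (y axis); diamonds are the 10 genes described, circles other genes, filled symbols have an unadjusted p of 0.05 or less and bars are medians. The medians of all lists lie near 0, between -0.11 and 0.22, and the widest spread is among the secretory factors.

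Beyond the 10 genes, 25 further secretory lineage factors were in the table and 23 were tested, and their log2 fold changes had a median of 0.0037. Of these, 4 reached an unadjusted p of 0.05 in the negative (11.8% of all genes) and 1 in the positive direction (12.5% of all genes). The negative ones included *Pou2f3*, the master factor of tuft cells, averaging 529 ± 272 (SD, n = 5) for WT against 148 ± 118 (SD, n = 7) for *Chd8L*+/-, at a log2 fold change of -1.98 (limma, adjusted p = 0.121). *Gfi1b*, the paralog of *Gfi1* that is known from tuft cells, averaged 125 ± 76.4 (SD, n = 5) against 30.4 ± 23.1 (SD, n = 7), at a log2 fold change of -1.97 (limma, adjusted p = 0.125), while *Gfi1* itself had 0.11. *Sox9*, a factor of crypt progenitors and Paneth cells, had -0.73 (limma, adjusted p = 0.127). *Pou2f3*, *Gfi1b* and *Sox9* are named here after their values were seen. *Hes6*, an inhibitor of HES1, averaged 799.98 ± 91.4 (SD, n = 5) against 584 ± 102 (SD, n = 7), at a log2 fold change of -0.46 (limma, adjusted p = 0.121).

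*Klf4*, a goblet cell factor and the most abundant of the secretory lineage factors, had a log2 fold change of -0.40 (limma, adjusted p = 0.381). Of 10 absorptive lineage factors, 3 reached an unadjusted p of 0.05 in the positive and 1 in the negative direction, with a median of -0.035. Over the 33 tested lineage factors of both kinds, 27.3% reached it, against 24.3% of all genes. *Elf3* had -0.47 (limma, adjusted p = 0.145) and *Hnf4a* -0.058 (limma, adjusted p = 0.879). DESeq2 called *Gfi1b*, *Pou2f3* and *Hes6* lower and none of the other lineage factors (3 of 33, 9.09%, against 6.29% of all genes). Without WT replicate 2, 8 of the 33 (24.2%) passed the adjusted threshold in limma, against 27.6% of all genes. Of these, 5 were lower (*Gfi1b*, *Pou2f3*, *Hes6*, *Klf4* and *Sox9*) and 3 higher.

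Markers of cell types were set beside these genes, each list by the median log2 fold change of its tested genes. Epithelial identity genes were present at high level, with a sum of between 147816 and 249701 normalized counts in WT and between 146298 and 235266 in *Chd8L*+/- libraries, and a median of -0.15 (9 genes, *Krt18* -1.08). Of the cell types grouped here as secretory, goblet (-0.33, 9 genes, *Spink4* -1.25) and Paneth markers (-0.44, 10 genes, *Ang4* -1.93) had negative medians. So had enteroendocrine (-0.15, 15 genes, *Sct* -0.67) and tuft cell markers (-1.87, 12 genes, *Gnat3* -2.23). Among these 4 lists, only tuft cell markers lay all in one direction, 12 of 12 negative. Positive were 2 of 9 goblet, 3 of 10 Paneth and 5 of 15 enteroendocrine markers. Of the other marker lists, cycling (12 of 12), crypt stem cell, stromal and myeloid markers (10 of 10 each) lay all positive. B cell markers (8 of 8) lay all negative. Enterocyte markers had a median of -0.32 (12 genes, *Fabp1* -1.08). Crypt stem cell markers had a median of 0.47 (10 genes, *Axin2* 0.50) and cycling cell markers 0.96 (12 genes, *Mki67* 1.45). Over all 12 libraries, none of the genes of the marker lists passed the adjusted threshold in limma. DESeq2, which called 6.29% of all genes, called 11 of 12 tuft, 2 of 9 goblet, 2 of 12 enterocyte and 2 of 10 myeloid markers. It also called 1 gene each of the enteroendocrine (*Sct*), epithelial identity (*Krt18*) and stromal lists (*Acta2*), and none of the other marker lists. Without WT replicate 2, where 27.6% of all genes passed in limma, 11 of 12 tuft (median -2.38) and 11 of 12 cycling markers (median 1.32) passed. So did 4 of 10 crypt stem cell (median 0.63) and 4 of 10 myeloid markers (median 0.84). Paneth markers had 3 of 10 (1 higher, *Lyz1*, and 2 lower) and stromal markers 3 of 10 (all higher). Enteroendocrine markers had 4 of 15 (1 higher, 3 lower), goblet markers 2 of 9 and T cell markers 1 of 11 (the last 2 lists all lower). Epithelial identity markers had 2 of 9 (1 higher, 1 lower, median -0.31) and enterocyte markers 2 of 12 (all lower, median -0.49). None of the endothelial, B cell or enteric glia and neuron markers passed.

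Cycling markers, like the receptors, had their highest WT value in WT replicate 2. Their sum there was 13719 normalized counts, where the WT median was 5631 and the lowest value 3229, and the *Chd8L*+/- libraries lay between 8046 and 14582. The crypt stem cell markers were likewise highest among WT in WT replicate 2, at 11671 against a WT median of 6539, and in *Chd8L*+/- libraries lay between 6963 and 12464. WT replicate 2 also had the lowest WT sums of tuft (3579 against a WT median of 22970.1), enterocyte (449794 against 896002) and epithelial identity markers (147816 against 208794), and the highest WT sum of myeloid markers (3365 against 1536). *Chd8L*+/- libraries had tuft sums between 2029.8 and 14415. The part of these cells in the values of *Pou2f3* and *Gfi1b*, and of cycling or stem cells in the values of *Notch1*, *Notch2* and *Jag1* was not tested. Stromal markers had a median of 1.72 (10 genes, *Col3a1* 2.77), with sums between 269.6 and 779 in WT, where WT replicate 2 was highest, and between 260.4 and 3484 in *Chd8L*+/- libraries. Myeloid markers had a median of 0.64 (10 genes, *Itgam* 1.35) and T cell markers -0.17 (11 genes, *Ptprc* -0.64). B cell markers had -0.27 (8 genes, *Cd79b* -0.52), endothelial markers -0.48 (6 genes, *Vwf* -0.46) and enteric glia and neuron markers 0.29 (2 genes). The untested endothelial markers *Cdh5*, *Kdr*, *Flt1*, *Cldn5* and *Eng* each had a higher mean in *Chd8L*+/- than in WT libraries. Sums of all endothelial markers found had a median of 180.6 in WT and 183.0 in *Chd8L*+/- libraries. The part of all these cells in the values above was not tested either.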

How the data were processed

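Tophat2 was used by the authors to map single-end reads of poly(A) libraries to mm10, and the DESeq2 pipeline followed. The counting program, annotation and use of strand are not given in the sources used here. The table deposited holds a signal for each of its listed genes in each library: counts divided by a size factor, so that each value is a whole multiple of what 1 read is worth; reads were recovered for 100% of values to within 0.01. The 12 columns were matched to mice by library name (0 belonged to other samples). Of the 14244 rows, 21 have names turned into dates and 2 repeat a name.

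The test was limma 3.58.1 (R 4.3.3, with a mean-dependent prior), without covariates, applied to log2(value + 1) where a gene averaged 10 or more. edgeR 4.0.16 and DESeq2 1.42.0 were run on the recovered reads of the same genes. The steps were tested on simulated data. Other alternatives were a pseudocount of 0.5 or 5, no filter, a mean of at least 50, quantile and TMM normalization, blocks by replicate number, by letter or number of the library name, and each library left out. The block by library number without WT replicate 2 was added after the values were seen. Correlations used 100000 permutations. The genes and lists were chosen with earlier results of these data known. Besides the 10 genes, those named are the smallest p in each direction and the highest mean of each pathway list, the smallest p of each marker list, and the 3 genes nearest to *Hes1*, *Atoh1* and *Dll1*. Some genes that this rule names are not reported here. Libraries and mice are equal in number, so p-values are taken to measure the spread between mice.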

Additional observations from a re-analysis of the deposited data

Results flagged for a closer look

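Within each genotype, the highest and lowest library of each of the 10 genes was set against the rest, in 20 groups of which chance alone would single out about 1 in 20. A library stood apart in 3. *Atoh1* was high in WT replicate 4, at 603 normalized counts, with the other WT libraries between 308 and 371. *Neurod1* was low in WT replicate 5, at 43.9 normalized counts against 68.6 to 78.2 in the other WT libraries. *Dll4* was high in *Chd8L*+/- replicate 5, at 468 normalized counts against 170.2 to 296 in the other *Chd8L*+/- libraries. Without WT replicate 4 the log2 fold change of *Atoh1* was -0.078, without WT replicate 5 that of *Neurod1* was -0.29 (and -0.049 without *Chd8L*+/- replicate 3), and without *Chd8L*+/- replicate 5 that of *Dll4* was 0.086; none passed the adjusted threshold in limma with or without these libraries.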

How the results depend on the processing

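Over 24 alternatives (23 for *Neurog3*, which a mean of at least 50 removes), *Notch1*, *Notch2*, *Jag1*, *Dll4*, *Hes1*, *Atoh1*, *Neurog3* and *Neurod1* kept their direction, with ranges of 0.22 to 0.63, 0.56 to 1.21, 0.28 to 0.67, 0.086 to 0.43, 0.14 to 0.50, -0.39 to -0.060, 0.13 to 0.49 and -0.32 to -0.049 in that order. Moves of over 1.5 times came without WT replicate 3 (*Notch1* 0.22, *Hes1* 0.18, *Neurog3* 0.18, *Gfi1* 0.069), WT replicate 4 (*Jag1* 0.28, *Atoh1* -0.078, *Gfi1* 0.19), WT replicate 5 (*Neurog3* 0.15, *Neurod1* -0.29), WT replicate 1 (*Gfi1* 0.0013, *Neurod1* -0.089), WT replicate 2 (*Notch1* 0.63, *Jag1* 0.67, *Neurog3* 0.45, *Gfi1* 0.16) and *Chd8L*+/- replicates 3 (*Neurod1* -0.049), 4 (*Gfi1* 0.067), 5 (*Dll4* 0.086, *Neurog3* 0.49), 6 (*Hes1* 0.20, *Neurog3* 0.13) and 7 (*Atoh1* -0.11), and for *Hes1* (0.14) and *Dll4* (0.36) with the library number as a block. Quantile normalization and the other blocks also moved some of the 8 genes by over 1.5 times, within these ranges. *Gfi1* reversed with quantile normalization (-0.0365). *Dll1* reversed with the letter of the library name as a block (0.0063) and lay between -0.091 and 0.051 with each library left out. No gene of the 10 was called except without WT replicate 2, when 3 were (range 0 to 3 with each library left out), and 1, *Notch2*, with the library number as a block and without WT replicate 2. At an unadjusted p of 0.05 or less there were then 3, with the replicate number as a block 2, and 0 to 3 with each library left out; without WT replicate 5 there were 0, as *Notch2* was lost. The count of all genes called, 3, was 5 in edgeR, 805 in DESeq2, 451 with the letter block, 0 with the number block, 2258 with that block and without WT replicate 2, and 0 to 3534 with each library left out. With the replicate number as a block it was 0. Samples of the same replicate number did not deviate together (correlations between -0.34 and 0.19 over 5 pairs, 1 above 0.1). Only 1 of 5 WT libraries correlated best with its own number, so the replicate numbers were not taken as pairs. WT and *Chd8L*+/- libraries sharing the number in their names had correlations between -0.38 and 0.225 (6 pairs, 2 above 0.1). That number, too, was used only as an alternative block. The causes were not tested. Precision is limited most for *Neurog3*, which rests on 10 to 54 reads a library.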
